A study of Mus musculus with 6 samples.

Results

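The genes of the synaptic vesicle release machinery were compared between the hypothalamus of NS-DADm mice and that of wild-type (WT) mice. The set holds 47 genes, listed by their role in release, and all 47 were found among the 24513 genes counted. Hypothalamic RNA came from 3 NS-DADm and 3 WT animals, all C57BL/6 and 3 to 4 months old, and each library stands for 1 mouse. The labels give only the name NS-DADm. From general knowledge, it stands for knock-in changes, present body-wide, that alter the domain through which the corepressors NCOR1 and SMRT activate the histone deacetylase HDAC3. WT mice carry neither change, no treatment is named for either group, and sex is not given in the labels. The comparison addresses how transcript levels in the hypothalamus differ when this domain is mutated.

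Neurons release transmitter when vesicles fuse with the membrane of the nerve terminal. Fusion is driven by SNARE proteins, VAMP on the vesicle and syntaxin and SNAP-25 on the terminal membrane, which zip together and pull the membranes into contact. UNC13 and CADPS proteins prime the vesicle, RIM, bassoon and piccolo hold it near calcium channels at the active zone, complexins clamp and promote fusion, and synaptotagmins sense the calcium that triggers it. The NSF enzyme then takes the SNARE complex apart for another round.

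All 47 genes had enough reads to be tested in the fit over 15894 genes. The libraries held 24173076 to 27532590 reads on genes in NS-DADm mice and 26542194 to 27606309 in WT mice. Reads of the 47 genes made up 1.5, 1.47 and 1.48% of these reads in NS-DADm 1, 2 and 3, against 1.59, 1.55 and 1.59% in WT 1, 2 and 3. Markers of the labelled tissue were present, with reads on all 20 listed hypothalamic peptide and transcription factor genes. These summed to 854.5 to 990 CPM in NS-DADm libraries and 820.4 to 901 CPM in WT libraries, with 16 of 20 fitted higher in NS-DADm mice, 6 of them at an unadjusted p under 0.05 and 1 called, and a median log2 fold change of 0.18. Markers of thalamus, the neighbouring region, had a summed level of 1015 to 1168 normalised counts (CPM, scaled to the reads on genes in a library) in NS-DADm libraries and 1408 to 2024 CPM in WT libraries. The 17 thalamus markers were all fitted lower in NS-DADm mice, 6 were called lower, and none was at 0. Markers of the anterior pituitary summed to 2017 CPM in NS-DADm 2, to 202 and 200.3 CPM in NS-DADm 1 and 3, and to 40.1 to 112 CPM in WT libraries. In whole tissue, fewer cells of a type and less RNA per cell cannot be told apart.

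The levels per exon length (RPKM, the scaled count per kilobase of exon) spanned a wide range among the 47 genes. Syp, which encodes synaptophysin, an abundant vesicle membrane protein, had the highest level, at 210 ± 2.4 RPKM in NS-DADm mice and 228 ± 11 RPKM in WT mice (mean ± SD, n = 3 each). Vamp2 and Snap25, for the main vesicle and terminal SNAREs, followed at 204 and 197 RPKM in NS-DADm mice and at 222 and 214 RPKM in WT mice. In all, 11 genes reached 100 RPKM on average, and these also included Rab3a, Syt11, Sv2a, Cplx1, Syngr1, Syn1, Syt1 and Nsf. Priming and scaffold genes lay lower, with Cadps at 25.8 RPKM in NS-DADm and 26.7 RPKM in WT mice, the highest level of the 5 priming genes. Pclo was the highest of the 6 scaffold genes, at 17.3 RPKM in NS-DADm and 16.2 RPKM in WT mice. That rank depends on the length used. With the longest transcript as gene length, Rims2 averaged 25.6 RPKM over all libraries, against 18.7 RPKM for Pclo. The lowest gene was Cplx3, at 0.68 RPKM in NS-DADm and 0.72 RPKM in WT mice, which rested on 31 to 64 reads per NS-DADm library and 53 to 61 per WT library. The spread within a group was small, with a median coefficient of variation of 3.47% over the 47 genes in NS-DADm and 6.06% in WT mice.

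**Figure D1:**
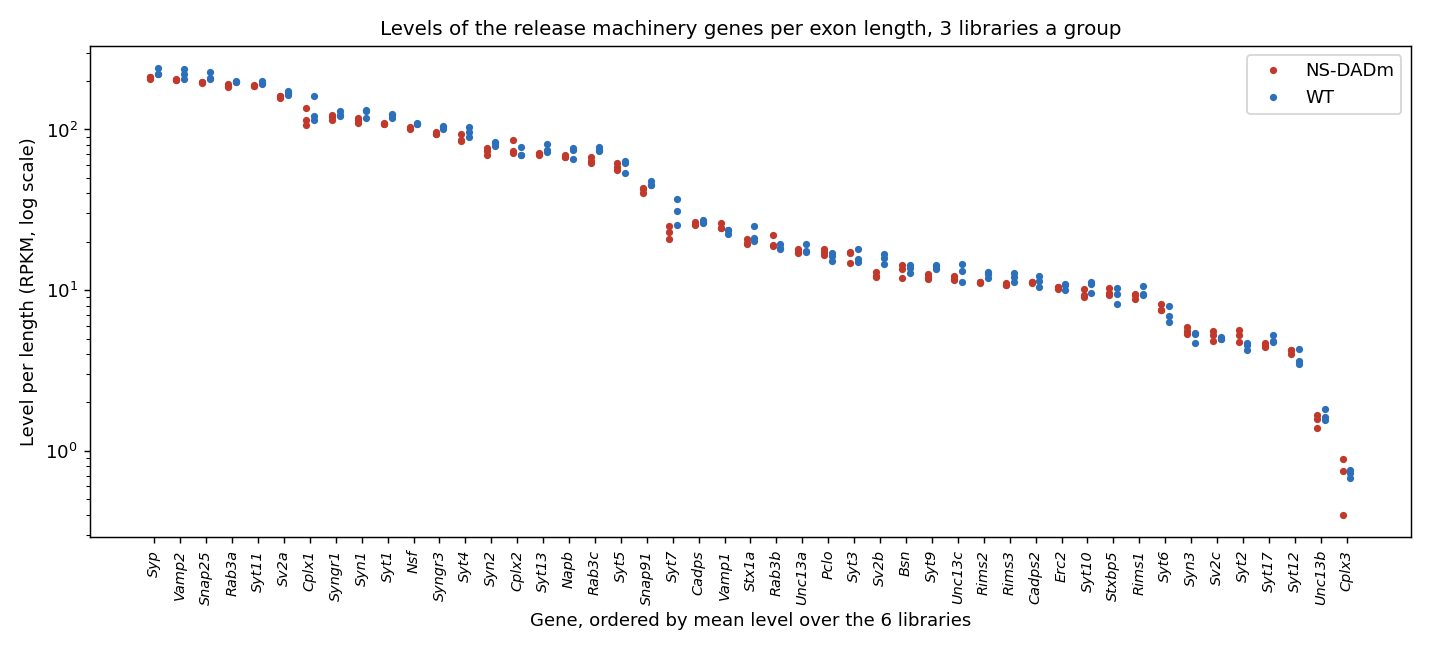
Level per length (RPKM, log scale) of each of the 47 release machinery genes in the 3 NS-DADm and 3 WT libraries, ordered by the mean over the 6 libraries. Points of both groups lie close together at every level, and genes run from Syp at 219 RPKM to Cplx3 at 0.7 RPKM.

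Release machinery transcripts were lower on balance in NS-DADm mice, by small amounts. Of the 47 genes, 36 were fitted lower and 11 higher, and the median log2 fold change of NS-DADm over WT was -0.10, against 0.004 over all genes tested. After adjustment over all genes (edgeR quasi-likelihood test, Benjamini-Hochberg), 2 of the 47 passed the threshold of 0.05, Sv2b and Rab3c, both lower, and 0 were called higher. Over all genes, 0.573% were called lower and 0.0818% higher. Without adjustment, 17 of the 47 were lower at a p under 0.05, a share of 36.2% against 6.46% of all genes tested, and 2 were higher, against 4.4% of all genes tested. With the thalamus marker mean as a covariate, 6 were lower and 7 higher at that level, 0 were called and the median was -0.064. The marker mean did not overlap between the groups, so this fit cannot cleanly separate it from the group. Without the covariate, the number lower was 8, 11 and 10 leaving out NS-DADm 1, 2 and 3, and 10 leaving out WT 3. The range with each library left out in turn is given further below. The 3 NS-DADm libraries all lay below the 3 WT libraries for 19 of the 47, or 40.4%, against 8.93% of all genes tested. They all lay above for 2, Syt2 and Vamp1, against 7.86% of all genes tested. The members are more abundant than most genes, and small differences are more easily seen at high counts. The part of abundance in these shares was not tested. A level of at least 100 CPM on average was chosen after the values were seen. Among genes there, 15 of 32 members were lower at an unadjusted p under 0.05 (46.9%) and 1 was higher (3.12%). Of the 2572 genes tested at that level, 10.5% were lower and 3.69% higher. The median log2 fold change was -0.104 for these members and -0.0119 for all genes at that level.

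The summed level of the 47 genes was 14811.6, 14700.2 and 14858.3 CPM in NS-DADm 1, 2 and 3, against 15889.4, 15628.6 and 16032.5 CPM in WT 1, 2 and 3. The groups did not overlap, and the NS-DADm mean was lower by a difference of -6.69%. General neuronal markers moved the same way in part. The 18 of them summed to 8405.6 to 8571.3 CPM in NS-DADm libraries and 8814.1 to 9215.2 CPM in WT libraries, a difference of -5.63%. Their median log2 fold change was -0.07, with 16 of 18 fitted lower and 4 lower at an unadjusted p under 0.05. Among glial markers, the median log2 fold change was -0.21 for oligodendrocyte genes, -0.12 for astrocyte genes and -0.06 for microglial genes, and their summed levels differed by -8.04%, -1.38% and -4.42%. At an unadjusted p under 0.05, 11 of 14 oligodendrocyte, 5 of 10 astrocyte and 3 of 10 microglial genes were lower, and 1, 0 and 1 were higher. The groups did not overlap, lower in NS-DADm mice, for 9, 4 and 3 of them, and higher for 1, 0 and 2. Of all genes tested, 8.93% lay lower without overlap and 7.86% higher. Of 10 endothelial and mural markers, 8 were fitted lower, 2 of them at an unadjusted p under 0.05. After adjustment over all genes, 1 oligodendrocyte gene and 1 endothelial or mural gene were called lower. Of the general neuronal, astrocyte and microglial genes, 0 were called. The part of the neuronal and glial markers in the values of the release genes was not tested.

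**Figure D2:**
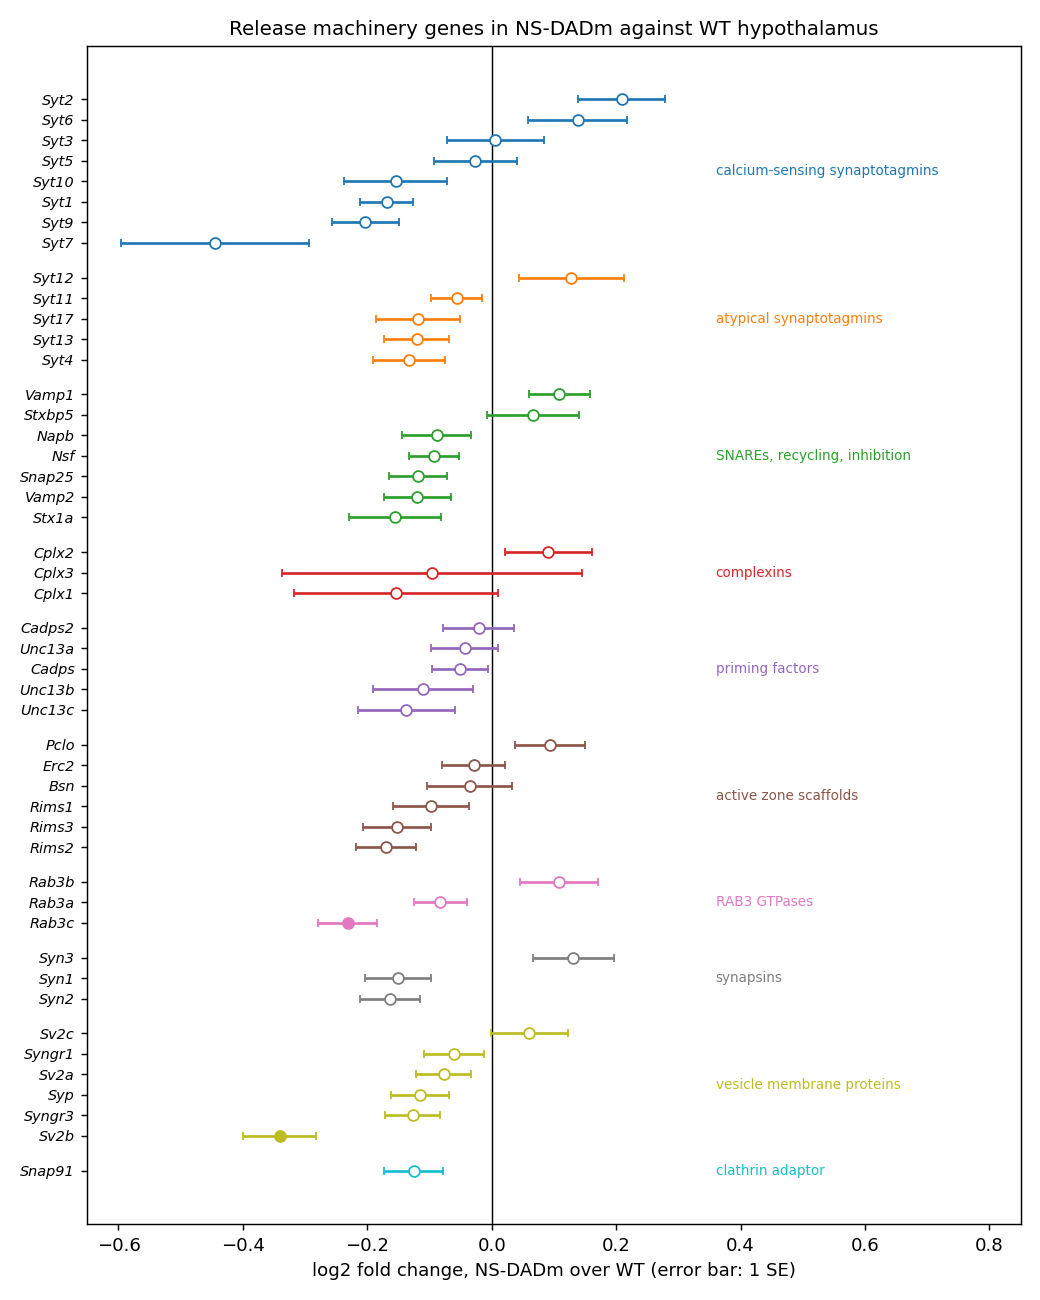
Log2 fold change of NS-DADm over WT with 1 standard error for the 47 genes, grouped by role. Filled points mark Sv2b and Rab3c, which passed the adjusted threshold, and 36 of the 47 points lie left of 0.

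**Figure D3:**
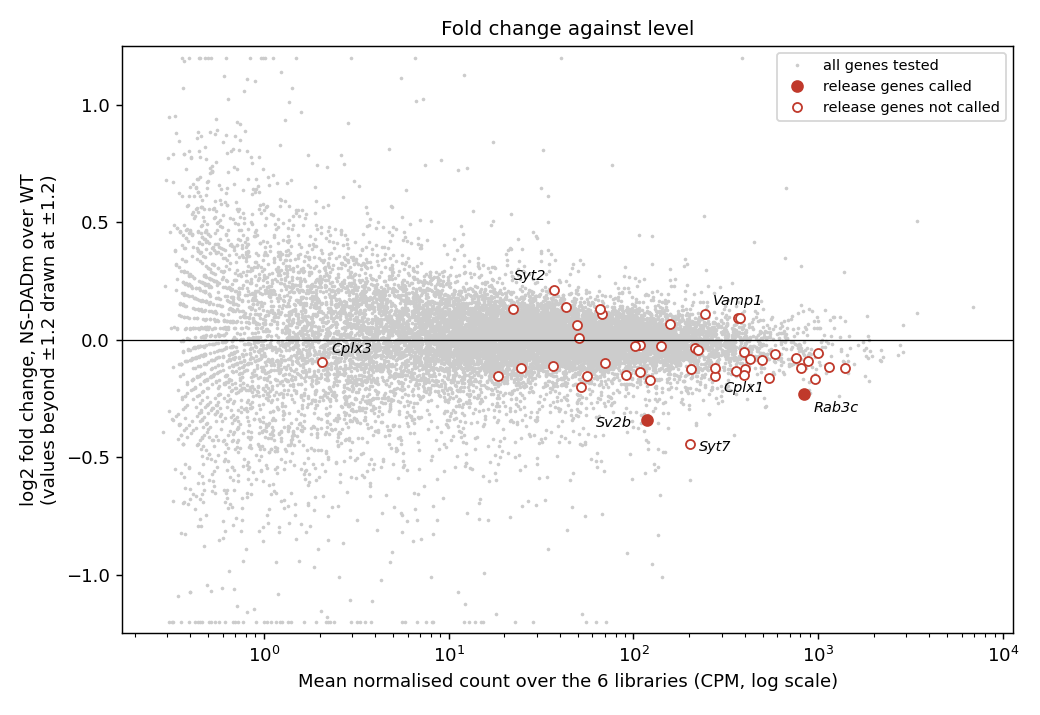
Log2 fold change of NS-DADm over WT against mean level (CPM, log scale) for all 15894 genes tested, in grey, and the 47 release machinery genes. Most release genes lie at high levels and slightly below 0, with Syt7, Sv2b and Rab3c among the lowest.

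Sv2b showed the clearest difference. It encodes a vesicle glycoprotein of the SV2 family, which binds synaptotagmin and serves as an entry receptor for botulinum toxin (chromosome 7, 75114894 to 75309262, minus strand, mm10). It measured 102, 102 and 108 CPM in NS-DADm 1, 2 and 3, against 141, 122 and 133 CPM in WT 1, 2 and 3. Every NS-DADm library lay below every WT library, and WT 1 was the highest. The transcript fell by 0.34 on the log2 scale (± 0.06 SE), with means of 104 ± 3.4 CPM in NS-DADm mice, against 132 ± 9.6 CPM in WT mice (adjusted p = 0.024, edgeR). When the thalamus marker mean was added to the fit, its log2 fold change was -0.06 ± 0.11 SE (adjusted p = 0.89, edgeR). That fit cannot cleanly separate the marker mean from the group, so this value cannot be read as a corrected effect. Without NS-DADm 1, 2 or 3 or WT 3 the call was lost, at BH adjusted p-values of 0.064 to 0.17 (edgeR).

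Rab3c encodes a small GTPase of synaptic vesicles that binds RIM proteins (chromosome 13, 110054187 to 110280996, minus strand). It measured 746, 808 and 767 CPM in NS-DADm 1, 2 and 3, against 880, 902 and 942 CPM in WT 1, 2 and 3. The groups were well separated, with the highest NS-DADm value below the lowest WT value. The transcript fell by 0.23 on the log2 scale (± 0.05 SE), with means of 774 ± 32 CPM in NS-DADm mice, against 908 ± 31 CPM in WT mice (adjusted p = 0.0496, edgeR). This p lies just under the threshold, and the call was lost with upper-quartile factors, with a minimum of 1 CPM and with limma voom, at adjusted p-values of 0.066, 0.053 and 0.054. It was also lost without any single library other than WT 1, at 0.066 to 0.30 (edgeR). With the thalamus covariate its log2 fold change was -0.33 (adjusted p = 0.34, edgeR), on the same side of 0.

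The promoters of 4 genes are given from RefSeq, 250 bases before to 50 after the transcript start, in build GRCm38.p6. Those of Sv2b and Rab3c are shown because these were the genes called, that of Syt2 because it had the highest fold change of the 47, and that of Syn1 because synapsin genes are textbook targets of the neuronal repressor REST. Capitals mark matches on either strand to the nuclear receptor half-site AGGTCA, the cAMP response element TGACGTCA and parts of the REST element, TTCAGCACC and GGACAGCG. No match overlapped another in these windows.
Sv2b, chr7:75309213-75309512, minus strand: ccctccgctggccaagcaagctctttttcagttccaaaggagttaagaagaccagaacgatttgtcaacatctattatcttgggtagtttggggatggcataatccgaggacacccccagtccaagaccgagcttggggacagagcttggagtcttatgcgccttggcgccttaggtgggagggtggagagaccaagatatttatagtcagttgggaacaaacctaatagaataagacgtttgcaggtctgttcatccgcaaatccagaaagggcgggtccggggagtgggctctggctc
Rab3c, chr13:110280157-110280456, minus strand: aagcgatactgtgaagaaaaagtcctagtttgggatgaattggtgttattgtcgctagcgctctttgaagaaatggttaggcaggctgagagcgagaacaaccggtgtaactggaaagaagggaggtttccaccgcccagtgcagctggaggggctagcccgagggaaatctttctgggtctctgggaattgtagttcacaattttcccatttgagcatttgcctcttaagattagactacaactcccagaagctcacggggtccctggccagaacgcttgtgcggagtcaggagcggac
Syt2, chr1:134646362-134646661, plus strand: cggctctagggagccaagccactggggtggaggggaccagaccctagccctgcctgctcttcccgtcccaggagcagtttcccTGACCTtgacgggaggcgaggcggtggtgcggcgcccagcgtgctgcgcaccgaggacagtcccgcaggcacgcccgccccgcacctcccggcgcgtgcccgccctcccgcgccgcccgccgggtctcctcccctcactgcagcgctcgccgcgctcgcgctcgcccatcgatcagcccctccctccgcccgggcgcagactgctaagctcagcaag
Syn1, chrX:20920869-20921168, minus strand: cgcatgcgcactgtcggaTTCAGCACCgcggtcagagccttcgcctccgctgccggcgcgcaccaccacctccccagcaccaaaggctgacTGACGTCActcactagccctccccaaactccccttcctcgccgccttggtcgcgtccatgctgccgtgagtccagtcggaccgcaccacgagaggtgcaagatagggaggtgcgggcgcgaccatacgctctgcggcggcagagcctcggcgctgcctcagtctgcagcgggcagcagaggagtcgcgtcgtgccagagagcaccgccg
Neither called gene held any of these letters in its window, while Syt2 held the nuclear receptor half-site and Syn1 held the cAMP response element and the left part of the REST element. Of the 36 members with a promoter in the RefSeq table, 5 held AGGTCA (13.9%), against 16.3% of all 32851 promoter windows of that length. TTCAGCACC stood in 2 of the 36, Syn1 and Unc13a (5.56%), against 0.371% of all windows. GGACAGCG stood in 2, Syt6 and Unc13a (5.56%), against 1.26% of all windows, and TGACGTCA in Syn1 alone (2.78%), against 1.79% of all windows. The shares are not like for like. The median share of G and C letters was 64.3% in the member windows, against 52.7% in all windows. For each member 1 window was taken, while every window counted in the background. These matches describe the letters and do not show binding.

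The calcium-sensing synaptotagmins split by gene. Of the 8, 5 were fitted lower and 3 higher, with 3 lower and 1 higher at an unadjusted p under 0.05, and none was called. The shares of all genes tested at that level, 6.46% lower and 4.4% higher, apply to each role group below. Syt1, the main trigger of fast release in forebrain neurons, measured 902, 900 and 916 CPM in NS-DADm 1, 2 and 3, against 1033, 985 and 1036 CPM in WT 1, 2 and 3. The NS-DADm libraries lay within a narrow band below all WT libraries (log2 fold change -0.17 ± 0.04 SE; adjusted p = 0.11, edgeR). Syt9, another fast sensor, measured 46.9, 48.3 and 50.02 CPM in NS-DADm 1, 2 and 3, against 56.3, 54.2 and 56.8 CPM in WT 1, 2 and 3. These groups did not overlap either (log2 fold change -0.20 ± 0.05 SE; adjusted p = 0.13, edgeR). Syt2, the fast sensor of many brainstem and spinal synapses, stood the other way, at 43.0, 40.04 and 36.6 CPM in NS-DADm 1, 2 and 3, against 35.9, 32.6 and 34.9 CPM in WT 1, 2 and 3. All its NS-DADm values lay above the WT values (log2 fold change 0.21 ± 0.07 SE; adjusted p = 0.27, edgeR).

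Syt7, a slow, high-affinity sensor of asynchronous release and facilitation, had the largest fitted difference of the 47. It measured 188, 155 and 172 CPM in NS-DADm 1, 2 and 3, against 278, 191 and 233 CPM in WT 1, 2 and 3. The groups did not overlap, but the WT libraries differed widely among themselves, and the log2 fold change of -0.44 ± 0.15 SE was not past the threshold (adjusted p = 0.38, edgeR). Within each group its libraries stood in the same order as the thalamus marker mean, as was the case for 7 of the 47 genes, the others being Syt3, Stx1a, Cplx1, Unc13a, Bsn and Syp. The share of all genes with that order was not counted, so the count of 7 cannot be judged. With the thalamus covariate the fitted value of Syt7 turned to 0.34 (adjusted p = 0.33, edgeR). Syt6 measured 44.0, 43.7 and 47.9 CPM in NS-DADm 1, 2 and 3, against 36.7, 46.2 and 40.4 CPM in WT 1, 2 and 3. WT 2 overlapped the NS-DADm libraries (log2 fold change 0.14 ± 0.08 SE). Syt10, a calcium sensor of peptide and growth factor secretion in olfactory neurons, had a log2 fold change of -0.15, Syt5 of -0.03 and Syt3 of 0.01, all with overlapping groups.

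**Figure D4:**
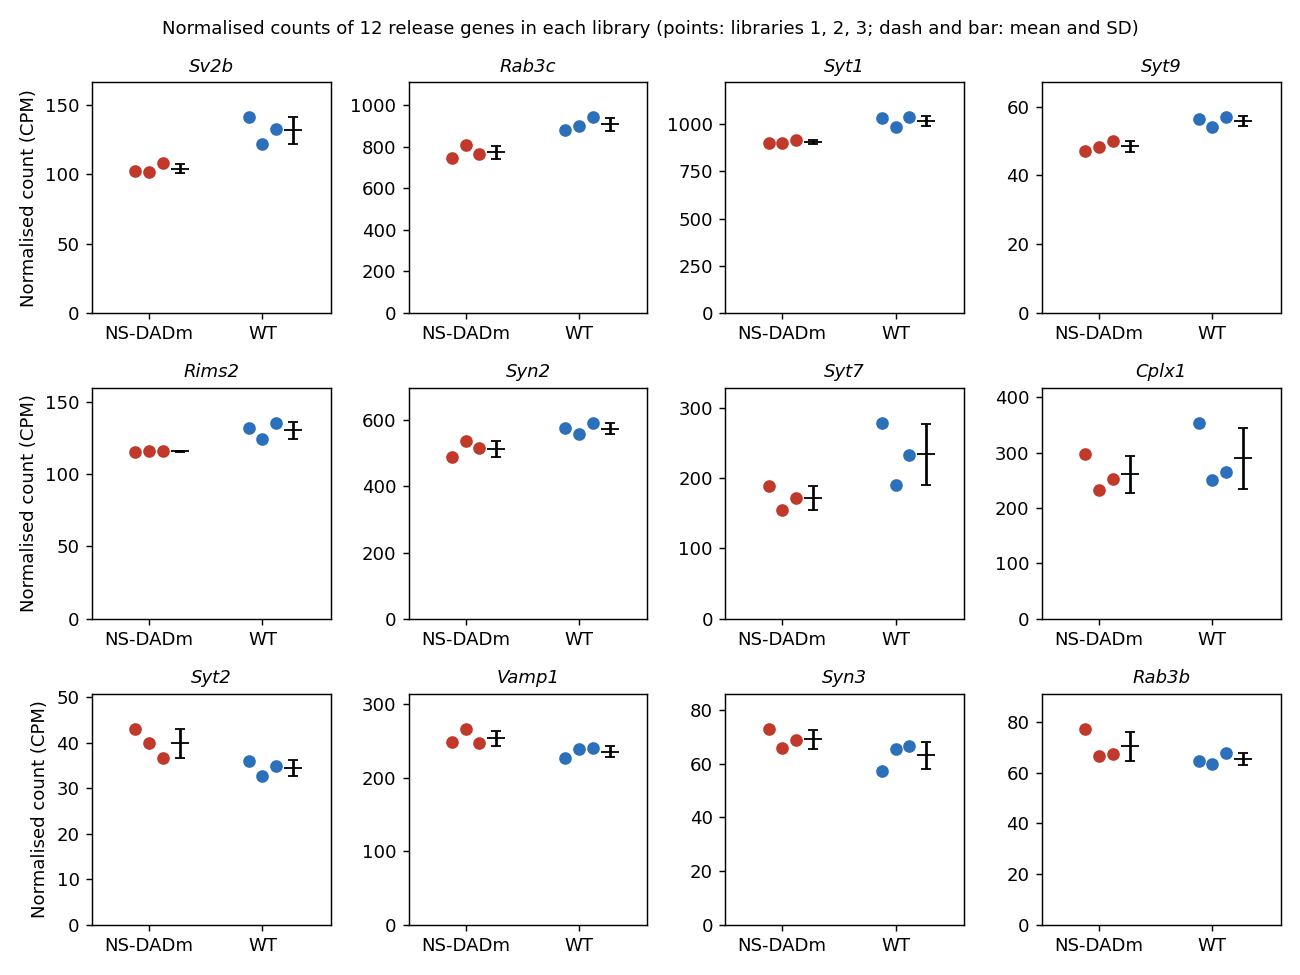
Normalised counts (CPM) of 12 release genes in NS-DADm libraries 1, 2 and 3 and in WT libraries 1, 2 and 3, with the mean and SD of each group. The groups do not overlap for Sv2b, Rab3c, Syt1, Syt9, Rims2, Syn2 and Syt7, lower in NS-DADm, nor for Syt2 and Vamp1, higher in NS-DADm.

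Among the 5 atypical synaptotagmins, most of which bind little or no calcium, 4 were fitted lower and none was called. Syt11, a regulator of vesicle endocytosis, was the most abundant of them per length, at 188 RPKM in NS-DADm and 195 RPKM in WT mice. It measured 979, 977 and 972 CPM in NS-DADm 1, 2 and 3, against 1042, 1011 and 993 CPM in WT 1, 2 and 3. The groups did not overlap, although the difference was small (log2 fold change -0.06 ± 0.04 SE; adjusted p = 0.70, edgeR). Syt13 and Syt4, an isoform of dense-core vesicles, had log2 fold changes of -0.12 and -0.13 with unadjusted p-values of 0.039 each (edgeR), and the groups overlapped for Syt4. Syt17 had a log2 fold change of -0.12. Syt12 measured 23.7, 22.2 and 23.6 CPM in NS-DADm 1, 2 and 3, against 23.99, 20.2 and 19.4 CPM in WT 1, 2 and 3. WT 1 was its highest library, so the groups overlapped (log2 fold change 0.13 ± 0.08 SE). It shares 950 bases of exon with A930001C03Rik on the other strand.

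SNARE genes and the genes that recycle or block SNARE complexes had 5 of 7 members fitted lower, 3 of them at an unadjusted p under 0.05, and none called. Vamp2, for the vesicle SNARE of most forebrain synapses, measured 774, 769 and 787 CPM in NS-DADm 1, 2 and 3, against 783, 841 and 908 CPM in WT 1, 2 and 3. WT 1 lay among the NS-DADm values, so the groups overlapped (log2 fold change -0.12 ± 0.05 SE; adjusted p = 0.44, edgeR). Vamp1, its close relative, measured 248, 266 and 247 CPM in NS-DADm 1, 2 and 3, against 227, 239 and 240 CPM in WT 1, 2 and 3. Every NS-DADm library was above every WT library (log2 fold change 0.11 ± 0.05 SE; adjusted p = 0.45, edgeR), and with the thalamus covariate the fitted value was -0.04. Snap25 averaged 1337 ± 12 CPM in NS-DADm mice, against 1451 ± 78 CPM in WT mice, and Nsf 852 ± 10 CPM in NS-DADm mice, against 909 ± 6.8 CPM in WT mice. Neither overlapped between groups, with log2 fold changes of -0.12 and -0.09. The groups overlapped for Stx1a, for the terminal syntaxin (log2 fold change -0.16), for Napb, for an adaptor that recruits NSF (-0.09), and for Stxbp5, for tomosyn, which blocks SNARE assembly (0.07).

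The 3 complexins showed no called difference and overlapping groups throughout. Cplx1 measured 297, 232 and 252 CPM in NS-DADm 1, 2 and 3, against 353, 251 and 266 CPM in WT 1, 2 and 3. Library 1 was the highest of each group, and the log2 fold change was -0.15 ± 0.16 SE (adjusted p = 0.83, edgeR). It was 0.02 without WT 1 and 0.57 with the thalamus covariate, neither past the threshold (adjusted p = 0.97 and 0.30, edgeR). Cplx2 measured 422, 362 and 354 CPM in NS-DADm 1, 2 and 3, against 382, 343 and 343 CPM in WT 1, 2 and 3. NS-DADm 1 stood above the rest (log2 fold change 0.09 ± 0.07 SE; adjusted p = 0.71, edgeR). Cplx3, best known from the retina, had too few reads for a precise value (log2 fold change -0.10 ± 0.24 SE).

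All 5 priming genes were fitted lower, none was called and none had an unadjusted p under 0.05. Cadps, which primes dense-core and synaptic vesicles, measured 381, 386 and 399 CPM in NS-DADm 1, 2 and 3, against 401, 411 and 396 CPM in WT 1, 2 and 3. NS-DADm 3 overlapped the WT libraries (log2 fold change -0.05 ± 0.04 SE; adjusted p = 0.76, edgeR). The log2 fold change was -0.02 for Cadps2, -0.04 for Unc13a, the main priming factor of excitatory synapses, -0.11 for Unc13b and -0.14 for Unc13c. The groups overlapped for each of these.

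Active zone scaffold genes were also mostly lower, with 5 of 6 fitted lower, 2 of them at an unadjusted p under 0.05, and none called. Rims2, for a RIM protein that links vesicles, RAB3 and calcium channels, measured 115, 116 and 116 CPM in NS-DADm 1, 2 and 3, against 132, 124 and 135 CPM in WT 1, 2 and 3. The NS-DADm libraries were nearly equal and lay below all WT libraries (log2 fold change -0.17 ± 0.05 SE; adjusted p = 0.18, edgeR). Rims3 averaged 86.2 ± 1.5 CPM in NS-DADm mice, against 95.8 ± 5.9 CPM in WT mice, without overlap (log2 fold change -0.15 ± 0.05 SE; adjusted p = 0.30, edgeR). Pclo, for the giant scaffold piccolo, measured 390, 369 and 406 CPM in NS-DADm 1, 2 and 3, against 340, 367 and 385 CPM in WT 1, 2 and 3. Its groups overlapped (log2 fold change 0.09 ± 0.06 SE; adjusted p = 0.61, edgeR), as did those of Rims1, of Bsn, for bassoon, and of Erc2, with log2 fold changes of -0.10, -0.04 and -0.03.

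The other RAB3 genes were smaller in their differences than Rab3c. Rab3a, the most abundant per length, measured 408, 425 and 417 CPM in NS-DADm 1, 2 and 3, against 439, 446 and 439 CPM in WT 1, 2 and 3. The groups did not overlap (log2 fold change -0.08 ± 0.04 SE; adjusted p = 0.53, edgeR). Rab3b measured 77.1, 66.7 and 67.4 CPM in NS-DADm 1, 2 and 3, against 64.6, 63.4 and 67.9 CPM in WT 1, 2 and 3. WT 3 overlapped the NS-DADm libraries (log2 fold change 0.11 ± 0.06 SE; adjusted p = 0.59, edgeR).

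Synapsins tether vesicles to each other and to actin in the reserve pool. Syn1 measured 364, 377 and 387 CPM in NS-DADm 1, 2 and 3, against 389, 427 and 436 CPM in WT 1, 2 and 3. Syn2 measured 488, 536 and 515 CPM in NS-DADm 1, 2 and 3, against 576, 557 and 590 CPM in WT 1, 2 and 3. Neither gene overlapped between the groups, with log2 fold changes of -0.15 ± 0.05 SE and -0.16 ± 0.05 SE (adjusted p = 0.29 and 0.19, edgeR). Syn1 was past the threshold without WT 1 (log2 fold change -0.20; adjusted p = 0.030, edgeR). Syn3 measured 72.8, 65.7 and 68.8 CPM in NS-DADm 1, 2 and 3, against 57.4, 65.3 and 66.6 CPM in WT 1, 2 and 3. NS-DADm 2 overlapped the WT libraries (log2 fold change 0.13 ± 0.06 SE; adjusted p = 0.50, edgeR). Timp3, on the other strand, shares 1733 bases of annotated exon with Syn3, so the count of Syn3 may hold or lack reads from there.

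Of the 6 genes for vesicle membrane proteins, 5 were fitted lower, 3 of them at an unadjusted p under 0.05, and Sv2b alone was called. Syp measured 1106, 1082 and 1100 CPM in NS-DADm 1, 2 and 3, against 1253, 1148 and 1160 CPM in WT 1, 2 and 3. The groups did not overlap (log2 fold change -0.12 ± 0.05 SE; adjusted p = 0.38, edgeR), and the value with the thalamus covariate was 0.04. Syngr3, a synaptogyrin, measured 194, 200 and 195 CPM in NS-DADm 1, 2 and 3, against 219, 213 and 210 CPM in WT 1, 2 and 3. These groups did not overlap either (log2 fold change -0.13 ± 0.04 SE; adjusted p = 0.29, edgeR). Sv2a, the widespread SV2 protein and the target of the antiepileptic levetiracetam, averaged 740 ± 12 CPM in NS-DADm mice, against 780 ± 26 CPM in WT mice, also without overlap (log2 fold change -0.08). Sv2c, rich in the basal ganglia, and Syngr1 overlapped between the groups, at log2 fold changes of 0.06 and -0.06. Snap91, for the clathrin adaptor AP180 that retrieves vesicles, measured 369, 390 and 395 CPM in NS-DADm 1, 2 and 3, against 411, 413 and 434 CPM in WT 1, 2 and 3. All its NS-DADm values lay below the WT values (log2 fold change -0.13 ± 0.05 SE; adjusted p = 0.34, edgeR).

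Within families, the ratio of each gene to the most abundant relative in the same library, or to Syt1 for the synaptotagmins, is given as a description with no test, since the pairs were set after the values of the genes were seen. Of 28 such ratios per length, 8 were higher in every NS-DADm than in every WT library, 2 were lower and 18 overlapped. Of the levels of single genes, 16.8% of all genes tested did not overlap in either direction. The ratios are not independent, since 12 of the 28, and 4 of the 8 higher ones, have Syt1 below the line, which was itself fitted lower in NS-DADm mice, as was Syt11. The Syt2 to Syt1 ratio was 0.052, 0.049 and 0.044 in NS-DADm 1, 2 and 3, against 0.038, 0.036 and 0.037 in WT 1, 2 and 3. The Vamp1 to Vamp2 ratio was 0.12, 0.13 and 0.12 in NS-DADm 1, 2 and 3, against 0.11, 0.11 and 0.099 in WT 1, 2 and 3. In both pairs the less abundant gene took a larger part in NS-DADm mice. The Syn3 to Syn1 ratio averaged 0.049 in NS-DADm and 0.041 in WT mice, and the Cplx2 to Cplx1 ratio 0.65 in NS-DADm and 0.55 in WT mice. Syn1 was the most abundant synapsin by exon length only. By the longest transcript, Syn2 averaged 141 RPKM over all libraries, against 122 RPKM for Syn1. The other higher ratios were those of Syt6, Syt11 and Syt12 to Syt1 and of Rab3b to Rab3a. Both lower ratios were those of the called genes, Sv2b to Sv2a at 0.078 in NS-DADm and 0.093 in WT mice, and Rab3c to Rab3a at 0.34 in NS-DADm and 0.38 in WT mice.

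**Figure D5:**
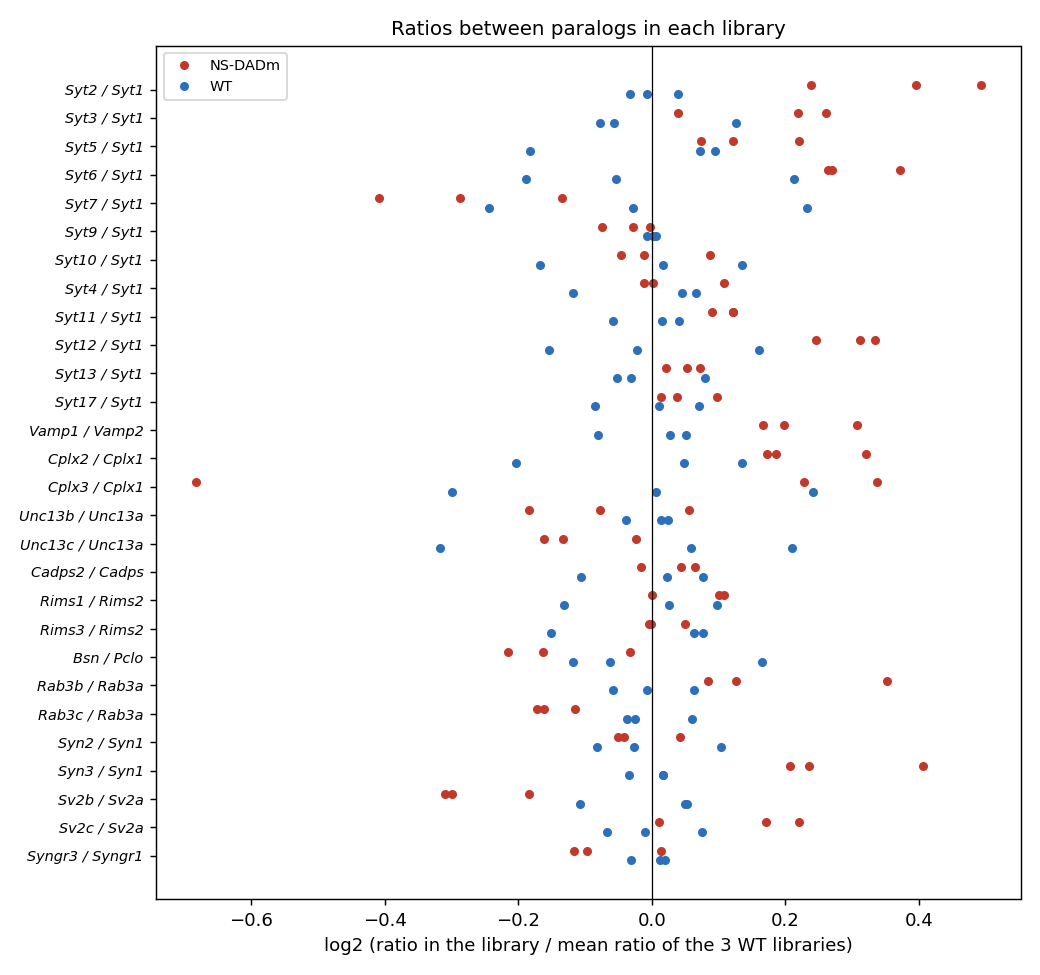
Ratio of each gene to a relative of its family in every library, on a log2 scale centred on the mean of the 3 WT libraries. The NS-DADm points lie wholly to the right of the WT points for 8 of 28 ratios and wholly to the left for Rab3c to Rab3a and Sv2b to Sv2a.

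Other genes of vesicle fusion, docking and retrieval were read in the same fit, and none of them was called. Of 27 genes of vesicle endocytosis, 22 were fitted lower, 7 at an unadjusted p under 0.05 and 0 higher at that level (median log2 fold change -0.06). Of all genes tested, 6.46% were lower and 4.4% higher at that level. Ap2a2, for a subunit of the clathrin adaptor AP-2, averaged 251 ± 9.2 CPM in NS-DADm mice, against 284 ± 7.7 CPM in WT mice (log2 fold change -0.18; adjusted p = 0.13, edgeR). Eps15 and Amph, for endocytic scaffolds, had log2 fold changes of -0.15 and -0.14. Among 18 other SNARE, SM protein and fusion regulator genes, 10 were fitted lower and 8 higher, 3 of them lower at an unadjusted p under 0.05, with a median log2 fold change of -0.01. Stxbp6, for amisyn, a SNARE-binding inhibitor of fusion, came nearest to the threshold, at 51.0, 50.1 and 54.6 CPM in NS-DADm 1, 2 and 3, against 85.7, 63.0 and 78.1 CPM in WT 1, 2 and 3. The groups did not overlap (log2 fold change -0.54 ± 0.10 SE; adjusted p = 0.052, edgeR). Of 23 other active zone and RAB genes, 11 were fitted lower and 12 higher, 0 of them at that level (median log2 fold change 0.02). Of 13 other synaptotagmin, DOC2 and synaptotagmin-like genes, 4 were fitted lower and 9 higher (median log2 fold change 0.03). At an unadjusted p under 0.05, 2 were higher, Doc2a, for a calcium sensor of spontaneous release, with a log2 fold change of 0.20 and 1103 bases of exon shared with Ino80e on the other strand, and Esyt1 with 0.21.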

How the data were processed

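RNA was measured in 6 hypothalamus libraries. The authors deposited raw counts of reads for each gene symbol. The submitters' processing notes name TopHat2 2.0.9, HTSeq and the mm10 genome. Kit, strandedness and gene models are not stated in the sources at hand, and 8 of the 47 genes share annotated exon bases with another counted gene. The last 5 rows of each table, unassigned reads, were left out. They held 13.3 to 14.8% (no gene), 1 to 1.06% (ambiguous) and 14.3 to 16.5% (not unique) of all entries, so genes with near-identical copies may be undercounted.

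Low counts were removed by filterByExpr, TMM factors set the scale, and genes were tested with the quasi-likelihood test of edgeR 4.0.16 (R 4.3.3) without covariates, with Benjamini-Hochberg adjustment over 15894 genes. The common biological coefficient of variation was 6.45%. Each standard error was derived from the log2 fold change and the F value of its test. Lengths were unions of GENCODE release M21 exons. Alternatives also used DESeq2 1.42.0 and limma 3.58.1, and figures were drawn with matplotlib 3.10.9. Simulated counts with known changes were used to test the fit.

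The members, lists and alternatives were chosen with earlier results of these data known. Full values are given for called genes, the 8 smallest p-values in each direction and the most abundant gene per length of each role group. Of each list of other pathway genes, at most 3 are named. The list of other vesicle membrane genes is not reported here. Syt7, Snap25, Nsf, Rims3, Sv2a and further members were given in part after their values were seen.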

Additional observations from a re-analysis of the deposited data

How the results depend on the processing

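The median log2 fold change of the 47 genes was below 0 in each of the 15 alternatives that fit the counts, and 28 to 37 of the 47 were fitted lower. The number called lower, 2 with all libraries and no block, was 1 with upper-quartile factors, 1 with a minimum of 1 CPM, 1 with limma voom and 3 with DESeq2, and 0 against a minimum fold of 1.2, and it ranged from 0 to 4 with single libraries left out. It was 0 with the thalamus marker mean as a covariate, where 6 were lower and 7 higher at an unadjusted p under 0.05, the median was -0.064 and 14 genes in all were called. With that covariate the fitted values of 14 members changed sign: Vamp1 (-0.045), Syt6 (-0.20), Stxbp5 (-0.24), Cplx1 (0.57), Syt7 (0.34), Bsn (0.31), Unc13b (0.29), Stx1a (0.23), Unc13a (0.18), Rims1 (0.14), Syt13 (0.092), Syngr1 (0.086), Syt17 (0.066) and Syp (0.045). The thalamus marker mean did not overlap between the groups, so this fit cannot cleanly separate it from the group. The cause of the sign changes was not tested. Cplx1 also changed sign without WT 1, and ranged from -0.258 to 0.0158 with single libraries left out. Against the minimum fold, 1 member was lower and 0 higher at an unadjusted p under 0.05, 1 other pathway gene was lower, and 8 genes in all were called. All genes called were 203 without a count filter and 282 with DESeq2, with 1 member higher at an unadjusted p under 0.05 in each. Stxbp6 was the 1 other pathway gene called with DESeq2, with limma voom and with the block.

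With single libraries left out, 8 to 16 members were lower and 1 to 3 higher at an unadjusted p under 0.05, 5 to 17 other pathway genes were lower, 0 to 1 of those were called, and 5 to 312 genes in all were called. The median was -0.0675 without WT 1 and -0.1012 without NS-DADm 3, its extremes, and groups failed to overlap for 2 to 5 members higher and 19 to 26 lower. Groups separate more readily when a library is left out, and the shares of all genes in these settings were not counted.

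The labels give both groups the numbers 1 to 3 but do not say that a number is shared between mice. Deviations of same-numbered libraries correlated at 0.13, 0.09 and -0.03, so the numbers were not taken as pairs, and not every library correlated best with its own number. With the replicate block, 4 members were called lower, Rab3c, Sv2b, Syt1 and Syt7, and 409 genes in all. Cplx3, with 31 to 64 reads per library, was limited by depth.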

Other observations

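With the thalamus marker mean as a covariate, the member with the smallest p was Unc13c, for a priming factor best known from the cerebellum. Its log2 fold change was -0.59 ± 0.11 SE there (edgeR, BH adjusted p = 0.066), against -0.14 without the covariate. That covariate cannot be cleanly separated from the group, so the larger value cannot be read as a corrected effect. The gene measured 103, 107 and 101 CPM in NS-DADm 1, 2 and 3, against 99.3, 127 and 115 CPM in WT 1, 2 and 3, with WT 1 the lowest of the 6 libraries. Unc13c was also among the 4 members called lower without WT 1. It was chosen after its values were seen.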
